A study of Mus musculus with 2 samples.

Results

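CD8 T cells that carry Ly49 receptor RNA were examined among tumor-infiltrating immune cells sorted from B16-OVA melanomas, a mouse melanoma line that expresses the model antigen ovalbumin. The cells were selected on their measured values: at least 2 unique molecular identifiers (UMIs, counted RNA molecules) of *Cd3d*, *Cd3e* and *Cd3g* together, at least 1 of *Cd8a* or *Cd8b1*, at least 1 of *Klra3*, *Klra7* or *Klra9*, none of *Ncr1* or *Foxp3*, fewer than 3 of the checkpoint genes *Pdcd1*, *Lag3* and *Havcr2*, fewer than 3 of the cell cycle genes *Mki67*, *Top2a* and *Birc5*, and fewer than 5 of the myeloid genes *Csf1r*, *C1qa*, *C1qb*, *C1qc* and *Cd14*. They numbered 92 of 5022 cells, 18 in the library labelled *Maoa* WT and 74 in the library labelled *Maoa* KO. They are called Ly49 CD8 T cells below, and the same criteria without the Ly49 genes are called the CD8 gate.

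The study compared C57BL/6J wild-type mice (*Maoa* WT) with mice carrying a hypomorphic *Maoa* mutation (*Maoa* KO, 129S-*Maoa*tm1Shih/J, backcrossed to C57BL/6J for more than 9 generations), to ask how the amine-degrading enzyme monoamine oxidase A shapes antitumor immunity. Mice were 8 to 12 weeks old, the labels name no drug, and both genotypes bore subcutaneous B16-OVA tumors. Tumors were taken 14 days after injection, 10 were pooled per genotype, and live CD45.2+ cells were sorted and run as 1 library per genotype, so no difference between the libraries has a replicate check. *Maoa* had 7 UMIs among 2392 cells of the library labelled *Maoa* WT, 15 UMIs among 2630 cells of the library labelled *Maoa* KO and 0 UMIs in the Ly49 CD8 T cells of either library. The mutant allele may leave the sequenced 3′ end of the transcript in place, so this count does not check the labels, and each direction between the libraries rests on them. A median Ly49 CD8 T cell had 4912 UMIs in the library labelled *Maoa* WT and 5453 in the library labelled *Maoa* KO, and the class summed to 101239 and 430048 UMIs. Of the cell barcodes, 13 occurred in both libraries, none of them in a Ly49 CD8 T cell.

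Ly49 receptors are lectin-like surface proteins encoded by the *Klra* gene cluster, and most of them bind MHC class I molecules. NK cells carry them as a patchwork, each cell using a few genes, and the inhibitory members restrain killing of cells with normal MHC class I. A minority of mouse CD8 T cells also carries them, among them memory-like CD8 T cells and CD8 T cells with the transcription factor Helios that have been described as regulatory. *Klra3* encodes Ly49C, *Klra7* encodes Ly49G and *Klra9* encodes Ly49I.

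All 3 selecting genes lie close together on the minus strand of chromosome 6 (mm10, GENCODE positions): *Klra9* at chr6:130178675-130193112, *Klra7* at chr6:130218605-130233322 and *Klra3* at chr6:130323289-130337574. *Klra3* and *Klra9* are near-identical copies, which matters for reading their UMIs, and their RefSeq promoter windows (GRCm38.p6, minus strand, 250 bases before to 50 after the start, 5′ to 3′) show how close they are. The windows are at chr6:130337577-130337876 for *Klra3* and chr6:130193063-130193362 for *Klra9*, and capitals mark bases that have no identical partner in a global alignment of both windows.
Klra3: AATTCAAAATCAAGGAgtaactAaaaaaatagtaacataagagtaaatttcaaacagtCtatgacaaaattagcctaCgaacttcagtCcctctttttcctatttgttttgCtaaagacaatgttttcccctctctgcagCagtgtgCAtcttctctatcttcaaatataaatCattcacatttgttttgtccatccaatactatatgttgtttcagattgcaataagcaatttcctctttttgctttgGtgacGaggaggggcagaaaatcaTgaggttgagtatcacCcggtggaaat
Klra9: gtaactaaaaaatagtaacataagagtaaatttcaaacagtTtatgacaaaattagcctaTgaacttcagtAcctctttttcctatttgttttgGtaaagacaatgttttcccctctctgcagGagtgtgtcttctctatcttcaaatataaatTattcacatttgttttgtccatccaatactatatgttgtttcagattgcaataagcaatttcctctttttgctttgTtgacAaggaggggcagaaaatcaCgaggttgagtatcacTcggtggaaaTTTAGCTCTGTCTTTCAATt
Of 281 paired bases, 271 (96.4%) were identical. The last 400 bases of their longest coding transcripts (GENCODE vM21), the part that a 3′ tag reads, were 98.3% identical over the alignment. *Klra7* was at most 67.1% identical to any other *Klra* transcript there. UMIs of *Klra3* and *Klra9* could therefore be split between or lost to both copies by the authors' alignment, and *Klra7* has no such close copy among the transcripts compared. Among the Ly49 genes outside the rule, *Klra5* and *Klra6* were 88.9% identical, *Klra6* and *Klra8* 87.2% identical and *Klra1* and *Klra4* 84.9% identical.

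*Klra7* was the gene that placed most cells in the class. In the library labelled *Maoa* WT, 15 of 18 Ly49 CD8 T cells had *Klra7* UMIs, 6 had *Klra9* UMIs and 2 had *Klra3* UMIs. In the library labelled *Maoa* KO the numbers were 54, 15 and 18 of 74 cells. Both libraries thus had *Klra7* as the leading gene, and they differed in the place of *Klra3*. Most cells showed 1 of the selecting genes alone, 14 of 18 cells (77.8%) and 61 of 74 cells (82.4%). *Klra7* alone accounted for 12 and 44 cells, *Klra9* alone for 2 and 9 cells and *Klra3* alone for 0 and 8 cells. All 3 genes together were found in 1 cell, in the library labelled *Maoa* WT.

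**Figure D1:**
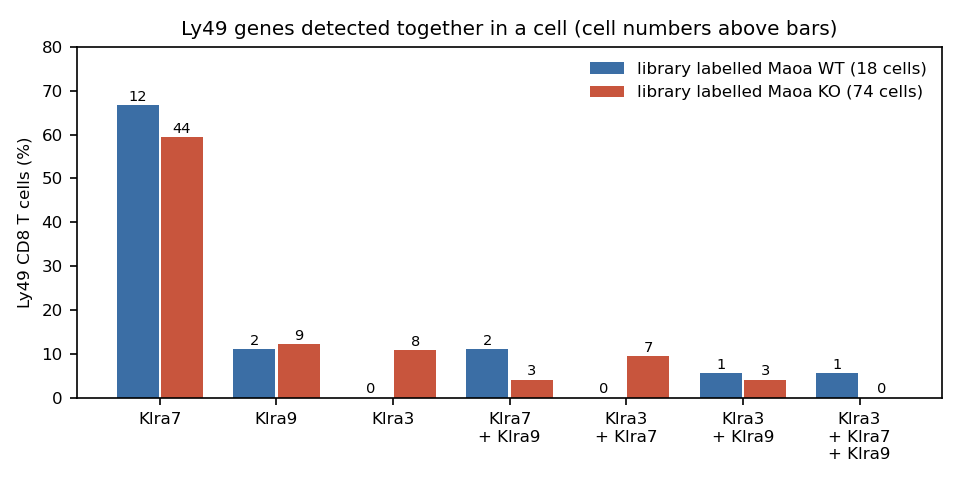
Percentage of Ly49 CD8 T cells (vertical axis) with UMIs of each combination of *Klra3*, *Klra7* and *Klra9* (horizontal axis) in the library labelled *Maoa* WT (blue, 18 cells) and the library labelled *Maoa* KO (red, 74 cells). *Klra7* alone was the most frequent state in both, with 12 and 44 cells.

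The selecting UMIs were few in many cells. Exactly 1 Ly49 UMI, the lowest value that the rule accepts, was present in 4 of 18 cells (22.2%) of the library labelled *Maoa* WT and in 33 of 74 cells (44.6%) of the library labelled *Maoa* KO, and 10 and 26 cells had 3 or more. The highest values in a cell were 19 and 15 UMIs. Just outside the rule were 165 and 365 cells of the CD8 gate with 0 Ly49 UMIs, some of which may carry Ly49 RNA that was not captured. Cells that passed every criterion except the one on *Cd8a* and *Cd8b1* numbered 22 and 104. The checkpoint limit alone removed 14 cells in each library, and *Ncr1* alone removed 5 in each.

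Ly49 CD8 T cells made up 0.753% of all cells in the library labelled *Maoa* WT (95% exact Clopper-Pearson interval 0.447 to 1.19) and 2.81% in the library labelled *Maoa* KO (2.22 to 3.52). Part of this difference went with the size of the gate, which held 7.65% (6.62 to 8.79) and 16.7% (15.3 to 18.2) of all cells. Within the gate the shares were 9.84% (5.93 to 15.1) and 16.9% (13.5 to 20.7), and these intervals overlapped. With *Klra3* left out of the rule the shares of the gate were 9.84% (5.93 to 15.1) and 15.0% (11.8 to 18.7). With at least 2 Ly49 UMIs required, the shares of the gate were 7.65% (4.25 to 12.5) and 9.34% (6.79 to 12.5), and with at least 3, a limit added after seeing the data, 5.46% (2.65 to 9.82) and 5.92% (3.90 to 8.56). The gap within the gate thus lay largely in cells with 1 Ly49 UMI. Each library is a single pool of tumors, and the intervals cover counting error only.

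Other cell classes were read the same way, to see how much Ly49 RNA appears where it should be rare. NK cells (at least 1 *Ncr1* UMI and fewer than 2 *Cd3* UMIs) had *Klra3*, *Klra7* or *Klra9* UMIs in 65.8% (56.3 to 74.4) of 114 cells in the library labelled *Maoa* WT and in 68.0% (60.5 to 74.9) of 172 cells in the library labelled *Maoa* KO. Checkpoint-high CD8 T cells, which have at least 3 UMIs of *Pdcd1*, *Lag3* and *Havcr2*, had them in 4.86% (2.68 to 8.02) of 288 cells and 8.43% (4.69 to 13.7) of 166 cells. Conventional CD4 T cells had them in 6.25% (1.73 to 15.2) of 64 cells and 6.45% (2.40 to 13.5) of 93 cells. Cycling CD8 T cells, far deeper at medians of 18477 and 19276 UMIs, had them in 7.97% (4.93 to 12.04) of 251 cells and 14.7% (8.47 to 23.1) of 102 cells. The CD8 gate was well below NK cells in both libraries, and its intervals overlapped those of the cycling, checkpoint-high and CD4 T cells.

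C1q-high macrophages, which should lack the selecting genes, differed between the libraries. They had UMIs of the selecting genes in 0.8% (0.0203 to 4.38) of 125 cells in the library labelled *Maoa* WT and in 15.8% (9.12 to 24.7) of 95 cells in the library labelled *Maoa* KO, at median depths of 11397 and 12277 UMIs. Most of this signal in the library labelled *Maoa* KO was *Klra3*, with 15 of 20 UMIs and 11 of the 15 cells, or 11.6% (5.92 to 19.8) of its macrophages. All 20 UMIs of the library labelled *Maoa* WT came from 1 macrophage (0.8%, 0.0203 to 4.38), 13 of them *Klra9* and 7 *Klra3*. In the CD8 gate, at median depths of 5197 and 4764 UMIs, *Klra3* was found in 1.09% (0.133 to 3.89) and 4.10% (2.45 to 6.4) of cells, no more often than in macrophages of the library labelled *Maoa* KO. After thinning to 3000 UMIs, *Klra3* was found in 3.02% (1.62 to 5.11) of the gate and 3.16% (0.656 to 8.95) of the 95 macrophages of that library, with overlapping intervals. Foxp3-positive T cells of that library had it in 1 of 130 thinned cells (0.769%, 0.0195 to 4.21), which also overlapped the gate. *Klra7* behaved differently, with UMIs in 8.20% (4.66 to 13.2) and 12.3% (9.38 to 15.7) of the gate against 0 of 125 macrophages, which allows a share of up to 2.40%, and 2.11% (0.256 to 7.40). *Klra9* was found in 3.28% (1.21 to 7.0) and 3.42% (1.92 to 5.57) of the gate and in 0.8% (0.0203 to 4.38) and 2.11% (0.256 to 7.40) of macrophages.

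When every cell was thinned to 3000 UMIs, the shares of the CD8 gate with selecting UMIs were 9.29% (5.51 to 14.5) and 13.7% (10.6 to 17.3), with 0 and 9 shallower cells left out. Checkpoint-high CD8 T cells were at 1.04% (0.215 to 3.01) and 3.68% (1.36 to 7.84), with 0 and 3 cells left out. Macrophages of the library labelled *Maoa* KO were at 4.21% (1.16 to 10.4). At equal depth the gate exceeded the checkpoint-high cells in both libraries, with intervals that did not overlap. Conventional CD4 T cells were at 6.25% (1.73 to 15.2) and 5.68% (1.87 to 12.8) at that depth, and these intervals overlapped those of the gate in both libraries. The whole rule was also applied to thinned cells, so that the gate itself was drawn anew. Ly49 CD8 T cells were then 12 of 363 cells of the gate (3.31%, 1.72 to 5.70) and 56 of 476 cells (11.8%, 9.01 to 15.0). These intervals were apart, but the upper limits of the rule are easier to pass with fewer UMIs. The gate had held 183 and 439 cells before thinning, so it grew mainly in the library labelled *Maoa* WT. The part of this growth in the shares was not tested. The median cell of the library labelled *Maoa* WT had 9888 UMIs and that of the library labelled *Maoa* KO 6946, and the part of this depth gap in the shares was not tested.

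**Figure D2:**
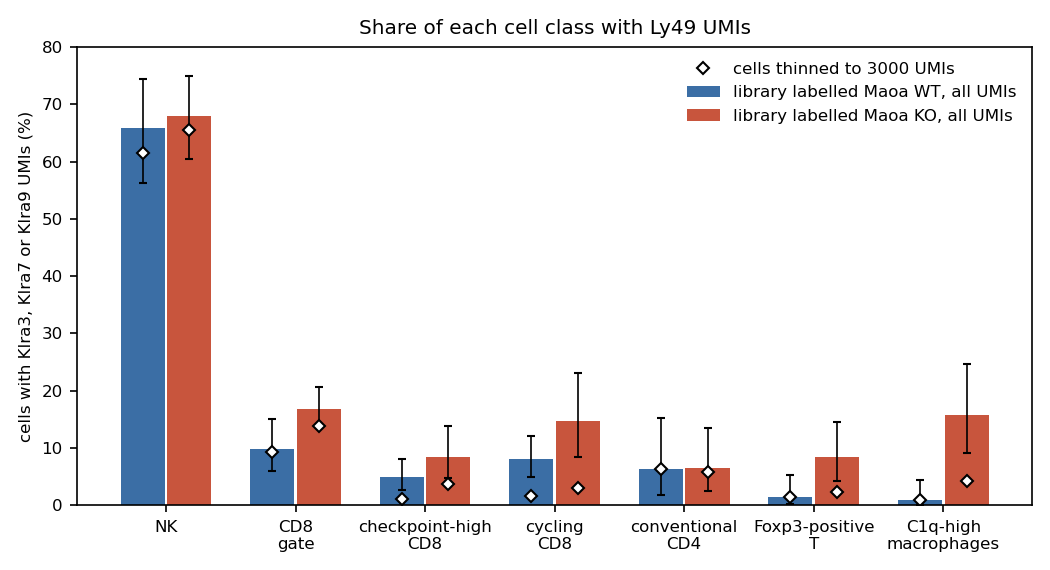
Percentage of cells with *Klra3*, *Klra7* or *Klra9* UMIs (vertical axis) in 7 cell classes of the library labelled *Maoa* WT (blue) and the library labelled *Maoa* KO (red); bars show all UMIs with 95% exact intervals and diamonds show cells thinned to 3000 UMIs. NK cells reached 65.8% and 68.0%, the CD8 gate 9.84% and 16.9%, and macrophages of the library labelled *Maoa* KO were at 15.8% before and 4.21% after thinning.

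The label of the class was checked against markers of other cells, since its own markers chose it. *Cd3e*, a signalling chain of the T cell receptor complex and a gene of the rule, was at 366 and 330 counts per 1000000 UMIs (CPM), and the NK marker *Ncr1* was at 0 by the rule. *Gata2*, also on the NK list, was at 0 in both libraries, as it was in the NK cells of the library labelled *Maoa* KO, so its absence separates nothing. Of 10 NK markers, 7 and 8 had UMIs in Ly49 CD8 T cells, and their summed level was 1610 and 770 CPM against 6842 and 7361 CPM in NK cells and 694 and 750 CPM in the rest of the CD8 gate. The list includes *Tyrobp* and *Fcer1g*, which myeloid cells also carry, and macrophages summed to 7438 and 6749 CPM. *Klrb1c*, which encodes the NK1.1 antigen, was found in 3 of 18 and 11 of 74 Ly49 CD8 T cells and in 0 of 165 and 10 of 365 other cells of the gate. *Zbtb16*, the transcription factor of invariant NKT cells, was at 0 UMIs in the Ly49 CD8 T cells of both libraries, a count that allows up to 29.6 and 6.98 CPM. The T cell receptor constant genes were not analysed here, so αβ and γδ T cells were not told apart. The part of NKT or γδ T cells in the values below was not tested.

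Other cell types left small amounts of RNA. Summed myeloid markers reached 514 and 393 CPM in Ly49 CD8 T cells, below 616 and 833 CPM in the rest of the gate, and melanoma markers had 2 and 3 UMIs. B cell markers had 13 and 12 UMIs, of which 8 were *Cd79a* in 1 cell of the library labelled *Maoa* WT. MHC class II genes stood out in single cells. The genes *H2-Aa*, *H2-Ab1* and *H2-Eb1*, which present antigen in myeloid and B cells, together had a median of 2 UMIs per Ly49 CD8 T cell in each library, but 3 cells of the library labelled *Maoa* KO had 383, 433 and 538 UMIs. Those 3 cells held 89.0% of that library's 1521 class II UMIs in the class and had 11202 to 16302 UMIs in all. In total 1 and 4 Ly49 CD8 T cells, and 8 and 15 other cells of the gate, had 10 or more class II UMIs, and results were also computed without them.

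The coreceptor chains *Cd8a* and *Cd8b1* were part of the rule and are described without a test. *Cd8a* was at 267 and 305 CPM in Ly49 CD8 T cells and at 429 and 401 CPM in the rest of the gate. *Cd8b1*, the β chain carried by conventional CD8 T cells, was at 306 and 342 CPM against 792 and 755 CPM. *Cd8b1* UMIs thus numbered 1.15 and 1.12 per *Cd8a* UMI in Ly49 CD8 T cells and 1.84 and 1.88 in the others. Checkpoint-high CD8 T cells had 1.20 and 1.39, values nearer to those of Ly49 CD8 T cells. Cells with *Cd8a* UMIs and none of *Cd8b1* made up 33.3% and 33.8% of the Ly49 CD8 T cells, and 15.8% and 8.22% of the rest of the gate and 3.47% and 3.01% of checkpoint-high CD8 T cells. *Cd8b1* was nonetheless found in 12 of 18 and 49 of 74 Ly49 CD8 T cells.

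Genes were then compared between Ly49 CD8 T cells and the 165 and 365 cells of the same gate without Ly49 UMIs. UMIs were summed per class and library and tested with limma on log2(CPM + 5), with library as a block, so that the test rests on 2 libraries and not on cells. The classes were of like depth, with medians of 4912 against 5198 UMIs in the library labelled *Maoa* WT and 5453 against 4666 UMIs in the library labelled *Maoa* KO. Of 5072 genes with enough UMIs, 0 (0%) were called in either direction at an adjusted p under 0.05, while 646 had an unadjusted p under 0.05, and the voom version of the fit called 8 higher and 2 lower. *Klre1* and *Ikzf2* came closest, with an adjusted p of 0.0515 each. Because nothing was called, genes are also described by a second criterion, chosen after seeing the data: a log2 difference of at least 1 in the same direction in both libraries. It was met by 7 genes higher in Ly49 CD8 T cells (0.138% of those tested) and 31 genes lower (0.611%). *Eif4e3*, *Atxn2l* and *Gzmc* lay just short of it, with 0.95, 0.93 and 0.90 in the library where they differed least.

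*Ikzf2*, which encodes Helios, was among the 7 higher genes. It was at 207 CPM (exact Poisson interval 128 to 317) and 265 CPM (219 to 318) in Ly49 CD8 T cells, and at 56.6 CPM (42.6 to 73.7) and 39.6 CPM (31.2 to 49.5) in the rest of the gate. The intervals of both classes did not overlap in either library. The mean log2 difference was 2.19 (SE 0.24, limma adjusted p = 0.0515). At 3000 UMIs per cell, *Ikzf2* was found in 9 of 18 and 29 of 73 Ly49 CD8 T cells and in 12 of 165 and 30 of 357 other cells. Over 16 alternative fits its log2 difference ranged from 1.75 to 2.49, and 9 of them called it.

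Of the Ly49 genes that had no part in the rule, *Klra6* and *Klra1* had enough UMIs to be tested against the same gate, and neither was called. *Klra6*, which encodes Ly49F, was at 178 CPM (105 to 281) and 112 CPM (82.3 to 148) in Ly49 CD8 T cells and at 15.4 CPM (8.64 to 25.5) and 9.25 CPM (5.48 to 14.6) in the rest of the gate, a log2 difference of 3.10 (SE 0.53, limma adjusted p = 0.206). It was found in 7 of 18 and 23 of 74 Ly49 CD8 T cells, but in 0 of 114 and 6 of 172 NK cells, and against NK cells limma called it higher by 4.16 (SE 0.55, adjusted p = 0.00551). Its 66 UMIs in Ly49 CD8 T cells alone carried it over the filter of 50 UMIs in every comparison, so that it could be tested because it was high there. *Klra6* RNA was thus scarce in the NK cells of the same tumors, which carried the selecting Ly49 genes most often. Its last 400 transcript bases were at most 65.6% identical to those of *Klra3*, *Klra7* and *Klra9* over the alignment, and at most 76.3% over paired bases. They were 87.2% identical to those of *Klra8*, which NK cells had at 142 and 417 CPM. How reads were assigned among these genes was not tested. *Klra1*, which encodes Ly49A, was at 59.3 CPM (21.7 to 129) and 46.5 CPM (28.4 to 71.8) against 16.5 CPM (9.41 to 26.7) and 6.68 CPM (3.56 to 11.4), a log2 difference of 1.86 (SE 0.31, limma adjusted p = 0.206). Against the same gate, *Klra1* too passed the filter only with its 26 UMIs in Ly49 CD8 T cells, since the whole gate had 22 and 33. NK cells had *Klra1* at 76.7 and 43.0 CPM, a log2 difference of -0.12 (SE 0.33, limma adjusted p = 0.814).

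The rest of the Ly49 list was thin. Of its 10 genes, 8 were in the table and 2 passed the filter against the same gate. *Klra2* had 0 UMIs in Ly49 CD8 T cells of both libraries, beside 5 and 8 in the rest of the gate, and *Klra17* had 0 and 3 UMIs, beside 5 and 1. *Klra5*, which encodes Ly49E, had 23 UMIs in 5 of 18 cells of the library labelled *Maoa* WT, 12 of them in 1 cell, and 4 UMIs in 2 of 74 cells of the library labelled *Maoa* KO. *Klra4* and *Klra8*, the activating receptors Ly49D and Ly49H, had 10 and 6 UMIs in the library labelled *Maoa* WT and 7 and 1 in the library labelled *Maoa* KO. As ratios of UMIs to the rest of the gate, *Klra4* was at 3.41 (1.96 to 4.89) and 2.38 (0.60 to 4.25) and *Klra8* at 3.06 (1.19 to 4.84) and -0.14 (-6.12 to 2.33) on the log2 scale. *Klra5* was at 6.50 (4.77 to 9.92) in the library labelled *Maoa* WT, and had 0 UMIs in the rest of the gate of the other. Against NK cells, where 4 of the list were tested, *Klra4* was called lower with a log2 difference of -3.61 (limma adjusted p = 0.00559) and *Klra8* with -3.52 (limma adjusted p = 0.0397).

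Other NK lectin receptors were mixed in size. Of the 13 in the list, 5 were tested against the same gate and 4 were higher in both libraries, with a median log2 difference of 0.98 against -0.06 over all genes tested, of which 23.5% were higher and 32.1% lower in both libraries. *Klre1*, a lectin-like receptor of NK cells, was at 138 CPM (75.6 to 232) and 114 CPM (84.3 to 151) against 23.7 CPM (15.0 to 35.5) and 25.2 CPM (18.6 to 33.3), a log2 difference of 2.15 (SE 0.21, limma adjusted p = 0.0515), and 8 of 14 alternative fits called it. *Klrd1*, which encodes CD94, the partner of the NKG2 receptors, was at 612 and 544 CPM against 269 and 314 CPM (log2 difference 0.98, SE 0.13, limma adjusted p = 0.118). *Klrk1*, which encodes NKG2D, was at 296 and 140 CPM against 109 and 136 CPM. The intervals of both classes were apart in the library labelled *Maoa* WT and overlapped in the other. *Klrc1* was at 88.9 and 48.8 CPM against 58.7 and 53.4 CPM, so the libraries differed in sign. Relative to NK cells, 8 of 11 tested members of this list were called lower and 0 higher, beside 13.5% and 3.75% of all genes tested there. Relative to checkpoint-high CD8 T cells, 6 were tested, 1 was higher and 2 were lower in both libraries, and 1 was called lower. The median log2 difference there was -0.16. Over all genes tested there, 18.4% were higher and 48.6% lower in both libraries, with a median of -0.31.

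The adaptors that signal below such receptors were mixed. *Fcer1g*, the Fc receptor γ chain, was at 751 and 337 CPM against 313 and 303 CPM in the rest of the gate, and *Tyrobp*, which encodes DAP12, at 464 and 223 CPM against 318 and 381 CPM. *Cd7* was at 494 and 293 CPM against 226 and 172 CPM, a log2 difference of 0.93 (SE 0.23, limma adjusted p = 0.317). *Hcst*, which encodes DAP10, had log2 differences of 0.46 and 0.13. Of 10 tested genes of this list, 5 were higher in both libraries and 1 lower, and none passed 2-fold in both. Against checkpoint-high CD8 T cells 4 of 11 were called higher and 2 lower, beside 3.88% and 13% of all genes, with log2 differences of 1.83 for *Gpr183*, 1.73 for *Cd7*, 1.60 for *Fcer1g*, 0.65 for *Hcst*, -1.36 for *Cd244* and -1.88 for *Sh2d2a*. Against NK cells 1 of 12 was called higher, *Gpr183* at 1.20, and 5 were called lower, beside 3.75% and 13.5% of all genes. The lower ones were *Sh2d1b1* at -3.24, *Tyrobp* at -3.04, *Cd244* at -3.03, *Fcgr3* at -2.38 and *Fcer1g* at -2.07. *Sh2d1b1* had no UMI in Ly49 CD8 T cells of either library, so the size of its difference depends on the added 5 CPM.

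*Xcl1*, the chemokine that attracts cross-presenting dendritic cells, was at 741 CPM (583 to 929) and 312 CPM (261 to 369) in Ly49 CD8 T cells and at 87.5 and 60.1 CPM in the rest of the gate (log2 difference 2.65, SE 0.42, limma adjusted p = 0.190). Its UMIs were unevenly spread. In the library labelled *Maoa* WT, 56 of 75 UMIs came from 1 cell, and in the library labelled *Maoa* KO 42 of 134 did. Without those cells the levels were 209 and 219 CPM, still above 70.9 and 52.7 CPM in the rest of the gate without its own highest cell. When the classes were drawn on cells thinned to 3000 UMIs and their full UMIs summed, the log2 difference of *Xcl1* was 0.16. This was the lowest of its 16 alternative fits. *Xcl1* was found in 9 of 18 and 39 of 74 Ly49 CD8 T cells. NK cells had more, 1139 and 2141 CPM. Against checkpoint-high CD8 T cells, 0 of the 4 chemokines tested, *Xcl1* among them, were higher in both libraries.

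Of the 4 chemokines tested, 1 was higher and 1 lower in both libraries. *Ccl5*, which draws T cells and monocytes, was at 7309 and 3869 CPM against 4463 and 5403 CPM, so the libraries differed in sign. *Ccl4* and *Ccl3* had 52 and 24 UMIs in the class, and against checkpoint-high CD8 T cells they were called lower, with log2 differences of -3.62 and -6.31 (limma adjusted p = 0.00403 and 0.00295). All UMIs of *Ccl3* in the class were in the library labelled *Maoa* KO, so the size of its difference depends on the added 5 CPM.

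*Klhdc2*, which encodes a substrate receptor of a ubiquitin ligase, and *Clec2i*, which encodes a lectin-like ligand of an NK receptor, completed the higher genes. *Klhdc2* was at 158 and 105 CPM against 44.3 and 37.0 CPM (log2 difference 1.56, SE 0.20, limma adjusted p = 0.113). *Clec2i* was at 49.4 and 95.3 CPM against 16.5 and 39.1 CPM (log2 difference 1.26, SE 0.24, limma adjusted p = 0.235). Of the alternative fits, 5 of 14 called *Klhdc2*, 3 of 14 *Klra6*, 3 of 16 *Xcl1*, 2 of 13 *Klra1* and 2 of 14 *Clec2i*. All 7 higher genes also met the criterion when members were chosen by *Klra7* or *Klra9* alone. That setting kept the same 18 cells of the library labelled *Maoa* WT and 66 of 74 of the other, so it could change little. All 7 also met it without the cells with MHC class II RNA, which left 17 and 70 members. With at least 2 Ly49 UMIs (14 and 41 members) 6 of 7 met it, and likewise without *Klrb1c* UMIs (15 and 63 members).

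**Figure D3:**
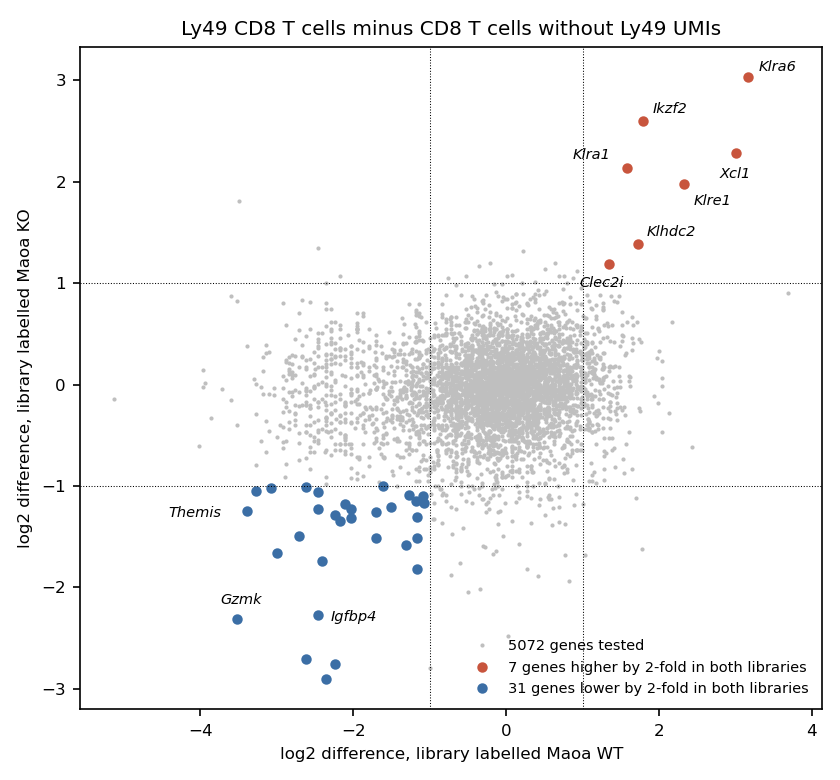
Log2 difference of log2(CPM + 5) between Ly49 CD8 T cells and CD8 T cells of the same gate without Ly49 UMIs, in the library labelled *Maoa* WT (horizontal axis) and the library labelled *Maoa* KO (vertical axis), for 5072 genes. Colored points are the 7 genes higher and the 31 genes lower by a log2 difference of 1 or more in both libraries (dotted lines); *Klra6*, *Ikzf2*, *Xcl1* and *Klre1* lie farthest to the upper right.

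The 31 lower genes are harder to read, since 24 of them had 0 UMIs among the 18 cells of the library labelled *Maoa* WT, where 3 UMIs correspond to 29.6 CPM. Of the 31, 9 had most of their comparison UMIs in the 23 comparison cells (4.34%) with 10 or more MHC class II UMIs, among them *Cd209a*, *Clec10a* and *Ccl22*, genes of dendritic cells. Without those cells 18 of the 31 genes were still tested and 14 met the criterion. *Gzmk*, which encodes granzyme K, had 0 and 3 UMIs in Ly49 CD8 T cells and was at 52.5 and 54.5 CPM in the rest of the gate. In the library labelled *Maoa* KO the log2 ratio was -2.75 (exact counting interval -5.27 to -1.38). *Igfbp4*, a gene of naive T cells, had 1 and 4 UMIs, at 9.88 and 9.30 CPM against 77.2 and 64.2 CPM. *Themis*, which tunes T cell receptor signalling, had 0 and 5 UMIs against 47.3 and 34.4 CPM.

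Genes of naive T cells were spread. Of 13 tested, 8 were lower in both libraries, 2 were higher in both and 0 were called, with a median log2 difference of -0.70. Over all genes tested, 32.1% were lower and 23.5% higher in both libraries, with a median of -0.06, and the counts below are to be read beside these shares. *Klf2* differed by -0.37 and -0.58 on the log2 scale. *Satb1* and *Foxp1*, also among the members with most UMIs, differed by 0.73 and -0.39 in the library labelled *Maoa* WT and by 0.41 and 0.24 in the library labelled *Maoa* KO. Memory genes had 5 of 14 higher and 4 lower in both libraries, with a median of 0.17. *Ly6c2* was at 1363 and 1890 CPM against 1289 and 1529 CPM, *Bcl2*, a survival factor, at 662 and 491 CPM against 551 and 410 CPM, and *Il2rb*, the receptor chain for IL-15, at 336 and 142 CPM against 160 and 105 CPM. *Ifngr1* differed by 0.37 and 0.13 and *Id2* by -0.71 and -0.33 on the log2 scale. *Eomes* was at 19.8 and 25.6 CPM against 22.6 and 26.2 CPM.

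Besides *Ikzf2*, the list of genes linked to regulatory CD8 T cells held little. Of its 10 genes, 5 were tested, 1 was higher and 2 were lower in both libraries, and the median log2 difference was -0.37. *Tgfb1*, *Icos* and *Il21r* had 44, 12 and 31 UMIs in the class. *Foxp3* was at 0 by the rule, and *Il2ra* had 2 UMIs in each library.

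No cytotoxic gene was called against the rest of the gate. *Nkg7*, a granule membrane protein, was at 1531 and 1274 CPM against 1496 and 1290 CPM, a log2 difference of 0.01 (SE 0.11). *Gzmb*, which encodes granzyme B, was at 395 and 27.9 CPM against 325 and 111 CPM, and 21 of 40 UMIs in the library labelled *Maoa* WT came from 1 cell. *Srgn* differed by -0.28 and -0.17 and *Ctsw* by 0.26 and 0.42 on the log2 scale. Over the 10 cytotoxic genes tested, 2 were higher and 4 lower in both libraries. Homing genes had 2 of 9 higher and 6 lower in both, and neither *Selplg*, *Cd69*, *Cxcr3* nor *Itgb7* passed 2-fold in both. The T cell receptor list had 1 of 10 higher and 5 lower in both libraries, with *Lck*, *Cd2*, *Cd27* and *Cd28* all within 1 log2 unit. *Tnfrsf9*, *Nr4a2*, *Nr4a1* and *Tox*, genes of activated and exhausted T cells, had 38, 19, 14 and 11 UMIs in the class, and 1 of the 5 tested genes of their list was higher and 3 were lower in both libraries.

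MHC class I genes, whose products Ly49 receptors bind, had no call against the rest of the gate. Of 8 tested, 1 was higher and 3 were lower in both libraries. Those with most UMIs, *B2m*, *H2-D1*, *H2-K1* and *H2-Q7*, differed by no more than 0.39 on the log2 scale in either. As ratios of UMIs, *H2-Q6* was at 0.81 (0.12 to 1.39) in the library labelled *Maoa* WT and 0.04 (-0.40 to 0.44) in the other, and *H2-T22* at 0.08 (-0.49 to 0.58) and -0.52 (-0.97 to -0.13). *H2-T23* was at -0.79 (-2.37 to 0.28) and -0.02 (-0.56 to 0.46), and *H2-Q4* at -0.56 (-1.47 to 0.15) and -0.37. Of 9 interferon response genes tested, 8 were lower in both libraries, beside 32.1% of all genes tested, and none was higher in both. Their median log2 difference was -0.71, and 0 were called. *Ifi27l2a* differed by -1.39 and -0.72, *Bst2* by -1.91 and -0.30 and *Isg15* by -1.25 and -0.17.

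Over both libraries, cells with more Ly49 UMIs had *Ikzf2* more often. *Ikzf2* was found in 14 of 37 cells (37.8%) with 1 Ly49 UMI, in 8 of 19 cells (42.1%) with 2 and in 26 of 36 cells (72.2%) with 3 or more, at median depths of 5473, 4640 and 5313 UMIs. The library labelled *Maoa* KO had it in 12 of 33, 6 of 15 and 19 of 26 cells, at 151, 274 and 409 CPM. The library labelled *Maoa* WT had it in 2 of 4, 2 of 4 and 7 of 10 cells, at 190 CPM, 337 CPM and 166 CPM, so its level did not follow that order. *Klrb1c* was found in 2, 0 and 12 cells of these groups. *Cd8b1* was found in 64.9%, 63.2% and 69.4% of them, at 396, 306 and 282 CPM, and *Cd8a* in 86.5%, 84.2% and 69.4%. Among the 8 cells with *Klra3* alone, *Ikzf2* was found in 2, *Cd8b1* in 7 (87.5%) and *Klra1* in none. The receptor genes also met in single cells. Of the cells with *Klra6* UMIs, 6 of 7 and 17 of 23 also had *Ikzf2* UMIs, beside 11 of 18 and 37 of 74 in the whole class. Of those with *Klrb1c* UMIs, 1 of 3 and 10 of 11 had them. Of those with *Xcl1* UMIs, 4 of 9 and 20 of 39 had them, close to the share in the whole class in the library labelled *Maoa* KO and below it in the other. These are descriptions of cells within 2 pools and carry no test.

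Against checkpoint-high CD8 T cells the class differed widely. This comparison, the one with NK cells and the one above share the same Ly49 CD8 T cell sums. The limit on *Pdcd1*, *Lag3* and *Havcr2* separates these classes, so genes that go with those receptors differ in part by choice, and the checkpoint-high cells were deeper, with medians of 10677 and 8216 UMIs. Of 6551 genes tested, limma called 254 higher (3.88%) and 850 lower (13%) in Ly49 CD8 T cells, and the median log2 difference over all genes was -0.31. Naive T cell genes were higher together, with 7 of 9 called higher and 0 lower and a median of 2.46. *Tcf7*, a transcription factor of naive and memory T cells, was higher by 3.40 on the log2 scale (limma adjusted p = 0.000346). Further called members were *Satb1* at 3.63, *Klf2* at 3.04, *Lef1* at 2.46, *Foxp1* at 1.59 and *Dapl1* at 1.41. Memory genes had 5 of 15 called higher and 2 lower, among them *Il7r*, higher by 2.30, and *Bcl2*, higher by 2.10 (limma adjusted p = 0.00574 and 0.000191). *Ly6c2*, *Ifngr1* and *Cxcr3* were higher by 1.81, 1.41 and 1.18, while *Id2* and *Itga4* were lower, with log2 differences of -1.64 and -0.79. *Ikzf2* was higher by 1.25 (SE 0.24, limma adjusted p = 0.0130), and *Klra6* by 4.10 (limma adjusted p = 0.00295).

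Effector and exhaustion genes were lower than in checkpoint-high cells. Of 12 cytotoxic genes, 8 were called lower and 1, *Ctsw*, higher, with log2 differences of -4.38 for *Gzmk*, -2.95 for the pore-forming protein gene *Prf1* and -1.41 for *Nkg7* (limma adjusted p = 0.00275 for *Gzmk* and 0.000454 for *Nkg7*). In Ly49 CD8 T cells *Gzmk* had no UMI in the library labelled *Maoa* WT and *Prf1* none in the library labelled *Maoa* KO. The size of these 2 differences thus depends on the added 5 CPM. Of 11 genes of the exhaustion list outside the rule, 7 were called lower, and 0 higher. *Tox*, a transcription factor of exhausted T cells, had a log2 difference of -3.54 and *Tnfrsf9* of -2.72 (limma adjusted p = 0.00101 and 0.000346), and *Entpd1* and *Ctla4* had -3.30 and -3.11. *Entpd1* had no UMI in Ly49 CD8 T cells of either library, so it passed the filter through the checkpoint-high cells alone. *Ctla4* had none in those of the library labelled *Maoa* WT. The size of both differences thus depends on the added 5 CPM. *Klrd1* and *Klre1* were not called, with log2 differences of 0.08 (SE 0.13) and 0.03 (SE 0.21).

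NK cells of the same tumors carried more of the NK program. Of 3970 genes tested, limma called 149 higher (3.75%) and 537 lower (13.5%) in Ly49 CD8 T cells, with a median log2 difference of -0.31 over all genes; *Cd3* and *Ncr1* UMIs separate these classes by definition. *Ikzf2* was called higher by 2.31 (SE 0.24, adjusted p = 0.00236), *Dapl1*, a gene of naive and memory CD8 T cells, by 3.83 (adjusted p = 0.00169) and *Ly6c2* by 2.74 (adjusted p = 0.00597) in this limma fit. Of 9 cytotoxic genes, 8 were called lower and 0 higher, and *Xcl1* was called lower with a log2 difference of -1.69 (limma adjusted p = 0.0377). T cell receptor and coreceptor genes had 2 of 6 called higher, *Cd27* and *Cd28*.

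**Figure D4:**
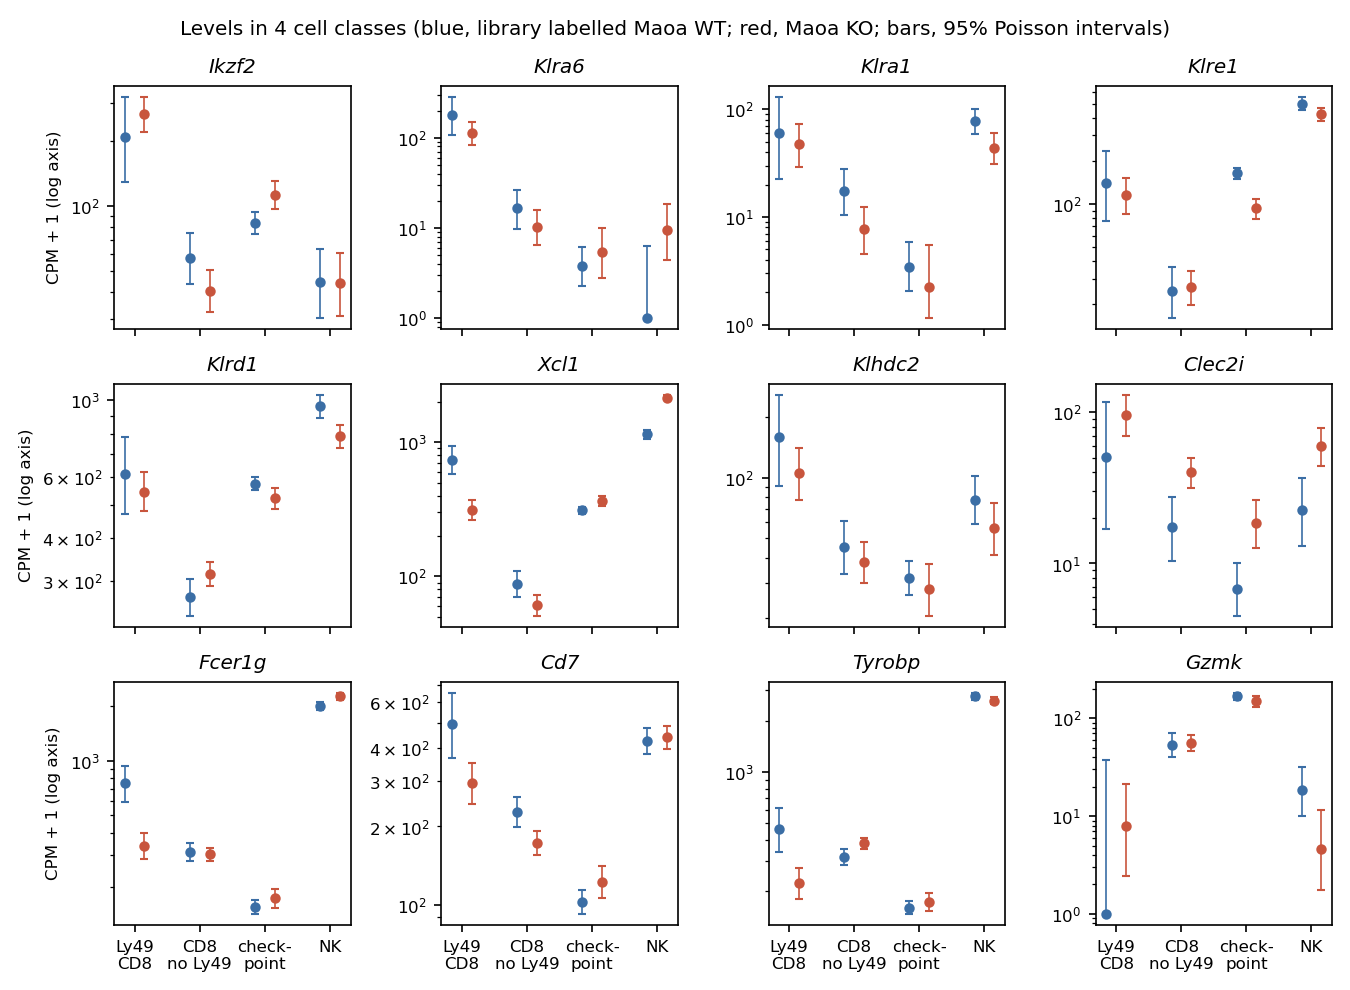
Level of 12 genes in CPM + 1 (vertical axes, log scale) in Ly49 CD8 T cells, CD8 T cells of the same gate without Ly49 UMIs, checkpoint-high CD8 T cells and NK cells, in the library labelled *Maoa* WT (blue) and the library labelled *Maoa* KO (red), with 95% exact Poisson intervals. *Ikzf2* and *Klra6* are highest in Ly49 CD8 T cells in both libraries, while *Klre1*, *Klrd1*, *Fcer1g* and *Tyrobp* are highest in NK cells.

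The libraries were last compared within the class, as ratios of UMIs with exact counting intervals and no test. Of 497 genes with at least 100 UMIs, 11 were past 2-fold higher (2.21%) and 7 past 2-fold lower (1.41%) in the library labelled *Maoa* KO, with a median log2 ratio of -0.03. *Ikzf2* was at 207 and 265 CPM, a log2 ratio of 0.33, and none of the 4 memory genes that reached 100 UMIs passed 2-fold. Of 4 adaptor genes that reached 100 UMIs, 2 were past 2-fold lower, with a median log2 ratio of -0.91.

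The higher genes were led by MHC class II. *Cd74*, the class II invariant chain, was at 504 CPM in the library labelled *Maoa* WT and 3658 CPM in the library labelled *Maoa* KO (log2 ratio 2.85, interval 2.46 to 3.29). *H2-Aa*, *H2-Eb1*, *H2-Ab1* and *Cst3* had log2 ratios of 2.81, 2.76, 2.49 and 2.28. These ratios rested on the few cells with class II RNA: without the 1 and 4 cells that had 10 or more class II UMIs they were 0.69 (0.00186 to 1.53) for *Cd74*, 0.21 for *H2-Aa*, -0.18 for *H2-Eb1*, 0.05 for *H2-Ab1* and -0.20 for *Cst3*. *Ifitm2* and *Ifitm3*, antiviral membrane proteins, went from 2.17 and 1.86 to 0.26 and 0.32, and *Lsp1* and *Gpx1* from 1.15 and 1.11 to 0.54 and 0.54. Without those cells 2 genes were past 2-fold higher and 5 lower, of 439.

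*Apobec3*, which edits retroviral DNA, kept its difference. It was at 49.4 and 263 CPM, a log2 ratio of 2.28 (1.15 to 4.06), and 2.19 (1.05 to 3.97) without the class II cells. The rest of the gate had the like, 2.40 (1.94 to 2.94). *Gnas*, a stimulatory G protein subunit, was lower by the same measure in both classes, with log2 ratios of -1.66 (-2.15 to -1.15) and -1.62 (-1.83 to -1.42), and *Jund* with -1.12 and -1.39.

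Other lower genes had smaller ratios in the rest of the gate. *Fcer1g* was at 751 and 337 CPM (log2 ratio -1.16, interval -1.56 to -0.73), against -0.05 (-0.25 to 0.16) in the rest of the gate, and it was -1.47 (-1.91 to -1.01) without the class II cells. The direction held in cells with 3 or more Ly49 UMIs, at 1200 CPM in 10 cells and 436 CPM in 26 cells, and turned in cells with 1 Ly49 UMI, at 190 and 212 CPM, and with 2, at 289 and 460 CPM. *Tyrobp* was at 464 and 223 CPM (-1.06, interval -1.57 to -0.52), against 0.26 (0.07 to 0.46), and the ratio in Ly49 CD8 T cells was -2.17 (-2.82 to -1.52) without the class II cells. The ratios of the rest of the gate still include its 8 and 15 cells with 10 or more class II UMIs. They are to be set against the ratios of all Ly49 CD8 T cells. *Ccl5* was at 7309 and 3869 CPM (-0.92, interval -1.04 to -0.79), against 0.28 (0.22 to 0.33). *S100a11*, *Ptpn22*, *Ctla2a* and *Ptprc* had log2 ratios of -1.19, -1.05, -0.97 and -0.85. *Xcl1* had -1.25 (-1.67 to -0.82), which rested on the 1 cell with 56 UMIs, since without the highest cell of each library the levels were 209 and 219 CPM. These values come from 18 cells of 1 library and 74 of the other, and cell-to-cell spread is not in the intervals.

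**Figure D5:**
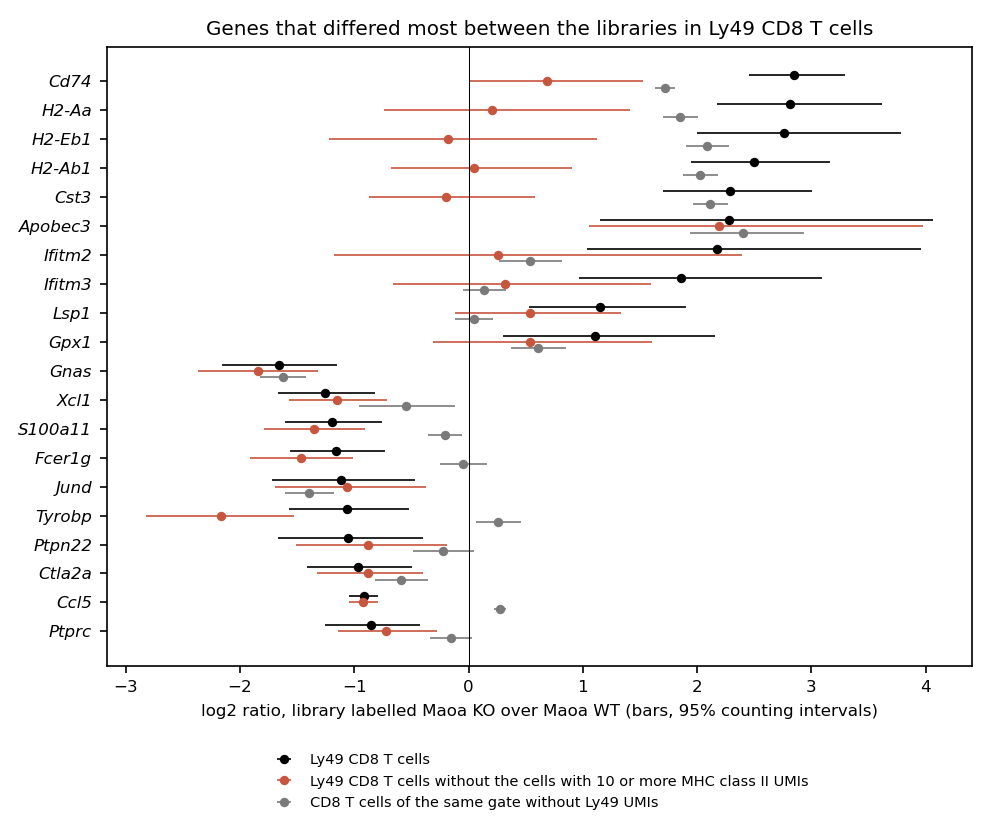
Log2 ratio of the library labelled *Maoa* KO over the library labelled *Maoa* WT (horizontal axis) for the 10 genes with the largest ratios in each direction in Ly49 CD8 T cells whose interval left out 0 (black), the same without cells with 10 or more MHC class II UMIs (red) and in CD8 T cells of the same gate without Ly49 UMIs (gray), with 95% counting intervals. *Cd74* was at 2.85 with and 0.69 without those cells, while *Apobec3* stayed at 2.19 and *Gnas* at -1.84.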

How the data were processed

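The deposited table held, for each gene and cell, a natural log value that the authors made as ln(1 + UMIs scaled to 10000 per cell). Per the study's methods, 10000 cells were loaded per genotype on a Chromium 3′ kit, libraries were aligned and merged with Cell Ranger (build mm10 in the submitters' processing notes), and cells under 300 UMIs or 100 genes or over 5% mitochondrial UMIs were removed. Dividing each cell's back-transformed values by its smallest step gave whole UMIs for 100% of values (tolerance 0.01).

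Cells were classed by UMIs, with no clustering. No doublet caller was run. UMI sums per class and library (8 sums, 4 classes) were tested with limma 3.58.1 (R 4.3.3; pseudocount 5 CPM, at least 50 UMIs in the 2 classes compared, Benjamini-Hochberg adjustment, 3 residual degrees of freedom before moderation). Genes of the rule were not tested. The test was checked on simulated data. Intervals (95%, SciPy 1.17.1) cover counting error only. Within a class, library ratios used 0.5 added UMIs and genes with at least 100 UMIs. A count of 0 allows up to 3 UMIs. Alternatives changed the rule, depth, pseudocount, filter, scaling and fit.

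The members and the gene lists were chosen with earlier results of these data known. Named genes were the 4 members of each list with most UMIs in the class, its called members and the 10 largest library ratios in each direction whose interval left out 0. The genes past 2-fold in both libraries, and *Cd3e*, *Il2rb*, *Eomes*, *Il2ra*, *Gzmk*, *Zbtb16*, *Igfbp4* and *Themis* among them or beside them, were chosen after their values were seen. Some members of the lists are counted but not reported here by name.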

Additional observations from a re-analysis of the deposited data

How the results depend on the processing

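Between the genotypes, no paired analysis was possible because each was 1 library. Classes were compared with library as a block. Settings with no UMI of doublet genes kept 4 and 14 cells. The share of all cells in the library labelled *Maoa* WT was 0.334% with at least 4 *Cd3* and 2 *Cd8* UMIs and 0.167% with no UMI of doublet genes, and 9.84% counts the gate instead. In the library labelled *Maoa* KO it was 2.05% and 0.532% under those settings, 1.56% with at least 2 Ly49 UMIs and 2.16% on thinned cells, and 16.9% counts the gate. On thinned cells, shares with Ly49 UMIs were 1.04% and 3.68% in checkpoint-high, 1.59% and 2.94% in cycling CD8 T cells, and 2.31% and 4.21% in Foxp3-positive T cells and macrophages of the library labelled *Maoa* KO. They were 6.25% and 5.68% in conventional CD4 T cells.

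Against the same gate, where limma called none, the genes called higher and lower were 2 and 11 on thinned cells, 2 and 0 without shared barcodes, 4 and 2 with members by *Klra7* or *Klra9*, 2 and 1 without MHC class II cells, 5 and 1 at a pseudocount of 20, 2 and 0 at a minimum of 20 UMIs, 1 and 0 at 200, 4 and 1 for means of cell fractions, 0 and 2 without doublet genes, 8 and 2 with voom, and 14 and 51 when the fit held those classes alone, with 1 residual degree of freedom. Genes past 2-fold in both libraries, 7 higher and 31 lower, became 11 and 91 with at least 2 Ly49 UMIs. With the classes drawn on thinned cells and full UMIs summed they became 29 and 342. They were 14 and 55 at a pseudocount of 1, 21 and 104 at a minimum of 20 UMIs and 2 and 4 at 200. There were 3 higher without doublet genes, 65 lower with members by *Klra7* or *Klra9*, and 5 lower at a pseudocount of 20.

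Between libraries, genes past 2-fold, 11 higher and 7 lower, became 6 and 3 with at least 2 Ly49 UMIs and with the class drawn on thinned cells. They became 7 and 2 with more *Cd3* and *Cd8* UMIs, 3 and 2 without doublet genes and 7 and 4 by *Klra7* or *Klra9*. They were 27 and 25 at a minimum of 50 UMIs and 6 and 3 at 200. Without MHC class II cells 2 were higher, and 2 were lower after ratio scaling. *Cst3* turned to -0.20 without MHC class II cells, and *Xcl1* to 0.70 with more *Cd3* and *Cd8* UMIs and 0.49 without *Klrb1c* UMIs. The causes were not tested. The settings by *Klra7* or *Klra9* and without MHC class II cells were chosen after seeing the data. An alternative on T cell receptor constant genes was not run. Of 911 values of 52 named genes against the same gate, 44 passed the threshold under an alternative and 177 moved by more than 1 SE of the reported value. The precision is limited by 18 cells in 1 library and by 3 residual degrees of freedom.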
